A study of Mus musculus with 9 samples.

Results

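RNA of 9 genes that encode enzymes adding or removing acetyl groups on Foxp3 was examined: the deacetylase genes Hdac1, Hdac3, Hdac6, Hdac7, Hdac9 and Sirt1, and the acetyltransferase genes Kat5, Ep300 and Crebbp. They were the rows of the count table that carried these symbols, 9 of 54232 genes. All 9 passed the filter on low counts, which left 14994 genes to be tested.

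The libraries came from regulatory T (Treg) cells of mouse spleen, sorted by a YFP reporter of Foxp3, with 3 libraries in each of 3 groups. One group was WT, another carried the genotype Usp21 Treg KO (here Usp21 KO), and the last carried Usp21/Usp22 Treg KO (here dKO), so both knockout groups lack Usp21. There was no group lacking Usp22 alone, so dKO against Usp21 KO is the comparison that adds the loss of Usp22. The cells of all groups shared the YFP sort and were listed as untreated. The labels number the libraries as biological samples and call the Treg cells natural and naive, but do not give strain, age, deleted exons or the driver of deletion. The p-values therefore measure the spread between these libraries.

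Foxp3 is the transcription factor that defines Treg cells, and its lysines can carry either acetyl groups or ubiquitin. The acetyltransferases p300 (Ep300), CBP (Crebbp) and TIP60 (Kat5) acetylate Foxp3, which protects it from ubiquitin-dependent degradation, and deacetylases such as SIRT1, HDAC6 and HDAC9 oppose them. USP21 and USP22 are deubiquitinases that remove ubiquitin, and both have been linked to keeping Foxp3 in Treg cells. Counts of RNA do not show the activity of these enzymes or the acetylation of Foxp3.

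The targeted genes followed the labels. Values are in CPM, counts scaled to a common library size, as mean ± SD over 3 libraries. WT cells held Usp21 at 63.3 ± 2.72 CPM, and it was 25.4 ± 2.49 CPM in Usp21 KO cells and 27.9 ± 1.59 CPM in dKO cells. Usp22 was 71.1 ± 1.74 CPM in WT cells, 73.8 ± 8.64 CPM in Usp21 KO cells and 25.4 ± 3.58 CPM in dKO cells. Foxp3 itself was 660 ± 34.2 CPM in WT cells, 730.0 ± 85.3 CPM in Usp21 KO cells and 333 ± 36.5 CPM in dKO cells. It fell in dKO against WT by 0.99 on the log2 scale (SE 0.10, adjusted p = 0.00140). Adjusted p-values here come from edgeR's quasi-likelihood test with Benjamini-Hochberg adjustment over all genes tested, and a gene passed below 0.05. Library totals ran from 18067377 to 40334577 counts.

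Of the 9 genes, Hdac9 was the only one that passed in any comparison, and it was lower in dKO. None of the 9 passed in Usp21 KO against WT with edgeR, where 0.0133% of all genes tested passed; 0 had an unadjusted p under 0.05, and 0 passed with DESeq2 or limma voom. In dKO against WT, 1 of 9 passed, while 5.78% of all genes passed, 2.77% lower and 3.01% higher. In dKO against Usp21 KO, 1 of 9 passed, while 4.9% of all genes passed, 3.2% lower and 1.7% higher. The dKO libraries are common to the last 2 comparisons.

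**Figure D1:**
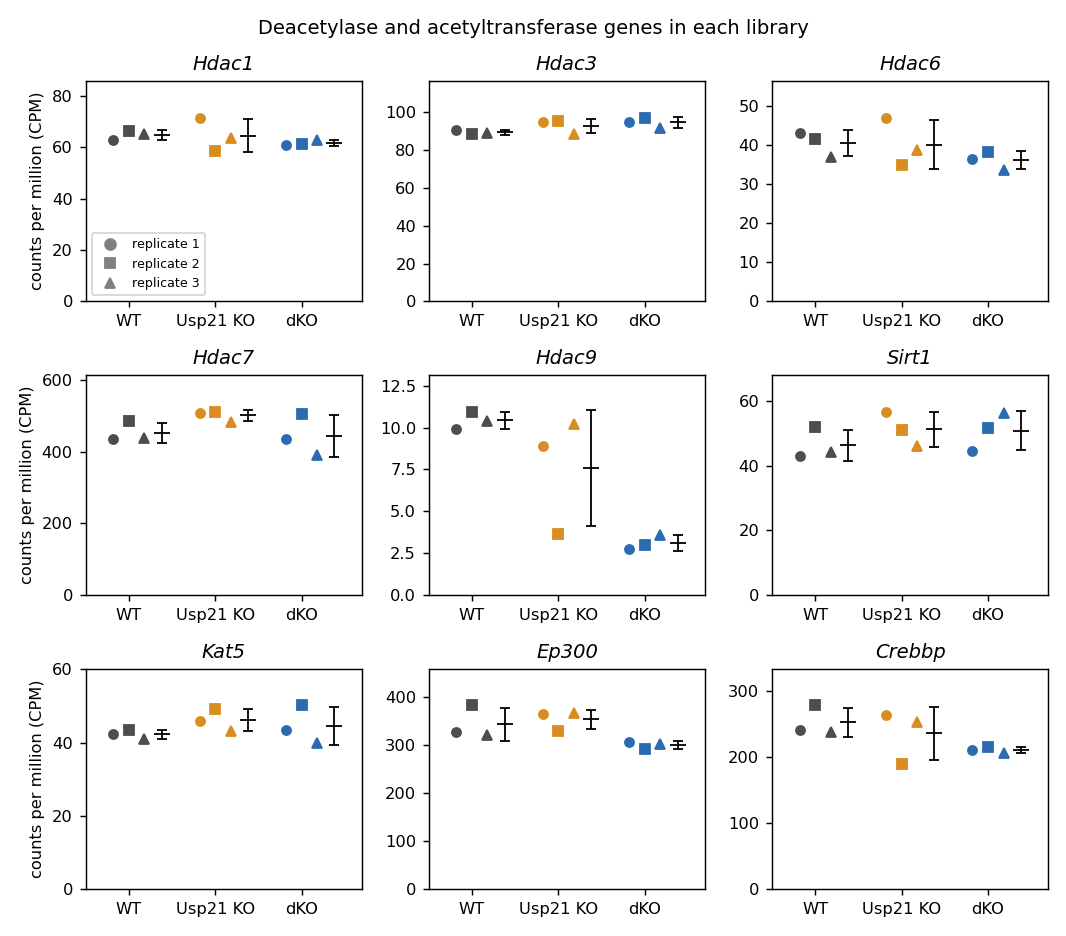
CPM of each of the 9 genes in every library, in WT, Usp21 KO and dKO, with 1 panel per gene, a marker for each replicate and the mean with SD beside them. Hdac9 lies between 2.73 and 3.62 in dKO and between 9.91 and 10.95 in WT, while the group means of the other 8 genes lie closer together.

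Hdac9 encodes a class IIa histone deacetylase, a family that shuttles between nucleus and cytoplasm and binds MEF2 transcription factors. In mouse Treg cells it is known as a deacetylase whose loss raises suppressive function. The gene lies on the minus strand of chromosome 12, from 34047580 to 34917095 (mm10, GENCODE M21), with 10 annotated transcripts and 14665 exon bases. Its annotated promoters are shown because Hdac9 carries the change reported here, and the data do not say which is used. RefSeq gives 2 starts 388.2 kb apart. Each sequence runs 5′ to 3′ on the minus strand of GRCm38.p6, from 250 bases before to 50 bases after the annotated start, with the 50 transcribed bases in capitals. They cover chr12:34917046-34917345 and chr12:34528840-34529139.
Hdac9 promoter 1: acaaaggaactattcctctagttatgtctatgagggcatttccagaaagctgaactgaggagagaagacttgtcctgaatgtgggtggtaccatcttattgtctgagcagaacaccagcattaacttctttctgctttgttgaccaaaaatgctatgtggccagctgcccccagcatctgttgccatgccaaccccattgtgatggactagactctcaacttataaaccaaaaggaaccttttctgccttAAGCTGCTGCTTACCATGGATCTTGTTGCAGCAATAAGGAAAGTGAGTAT
Hdac9 promoter 2: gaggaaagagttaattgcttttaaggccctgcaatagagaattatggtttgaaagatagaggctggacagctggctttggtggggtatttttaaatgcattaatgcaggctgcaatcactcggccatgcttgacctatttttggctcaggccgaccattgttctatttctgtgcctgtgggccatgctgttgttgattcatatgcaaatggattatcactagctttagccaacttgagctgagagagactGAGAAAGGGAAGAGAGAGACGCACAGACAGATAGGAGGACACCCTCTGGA

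Hdac9 promoters were poor in CpG. Promoter 1 had a GC content of 44.0% and 0 CpG, and promoter 2 had 45.3% and 3 CpG, an observed to expected CpG ratio of 0.205. Over the 32851 RefSeq promoters the median GC content was 52.7% and the median CpG ratio 0.384. Promoters were matched for 7 of the 9 genes, Hdac1 and Hdac3 being without an entry. In the other 6 matched genes at least 1 promoter had a CpG ratio of 0.783 or more. Hdac7, also of class IIa, had promoters at 0.283 and 0.185 beside those at 0.795 and 1.09, so low ratios were not particular to Hdac9. Searched on both strands, neither Hdac9 promoter held the forkhead core TGTTTAC (in 3.65% of all promoters), the MEF2 box (3.19%), the CREB core TGACG (20.8%), the STAT site TTCNNNGAA (8.3%), the GC box GGGCGG (35.7%) or the E-box CACGTG (7.15%). The CREB core and the E-box can share letters. These counts describe the windows and say nothing about binding.

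Hdac9 was at 9.91, 10.95 and 10.42 CPM in the WT libraries, at 8.92, 3.63 and 10.2 in Usp21 KO, and at 2.73, 2.98 and 3.62 in dKO. All 3 dKO libraries were below every other library, though the lowest Usp21 KO library, replicate 2, was at 3.63 CPM beside 3.62 in the highest dKO library. In raw counts the WT libraries held 208, 297 and 412 and the dKO libraries 89, 61 and 123. The mean of dKO was 29.8% of WT, a log2 fold change of -1.74 (SE 0.32, 95% interval -2.45 to -1.03, adjusted p = 0.0140). Against Usp21 KO it was 41.0%, a log2 fold change of -1.28 (SE 0.32, 95% interval -1.99 to -0.57, adjusted p = 0.0497). Usp21 KO differed from WT by -0.46 (SE 0.31, adjusted p = 0.617).

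The direction of Hdac9 in dKO held under every setting tried, but the call did not. Against WT the log2 fold change ran from -1.87 to -1.64, and Hdac9 passed in 13 of 18 settings. Its adjusted p was 1.1e-06 with DESeq2 and 8.9e-06 without Usp21 KO replicate 2. In the 6 libraries of the comparison alone it was 2.1e-05, and 4.1e-06 in those 6 with the replicate block. The adjusted p rose to 0.0592 without WT replicate 1, 0.0532 without WT replicate 2, and 0.0697, 0.0664 and 0.0579 without dKO replicates 1, 2 and 3. Against Usp21 KO the change ran from -1.59 to -1.03, and the gene passed with no filter (0.0347), a stricter filter (0.0455), DESeq2 (0.00106) and without Usp21 KO replicate 2 (9.1e-05). Under the other settings its adjusted p lay between 0.0503 and 0.195. Without Usp21 KO replicate 2 the difference between Usp21 KO and WT was -0.14 (adjusted p = 0.848).

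**Figure D2:**
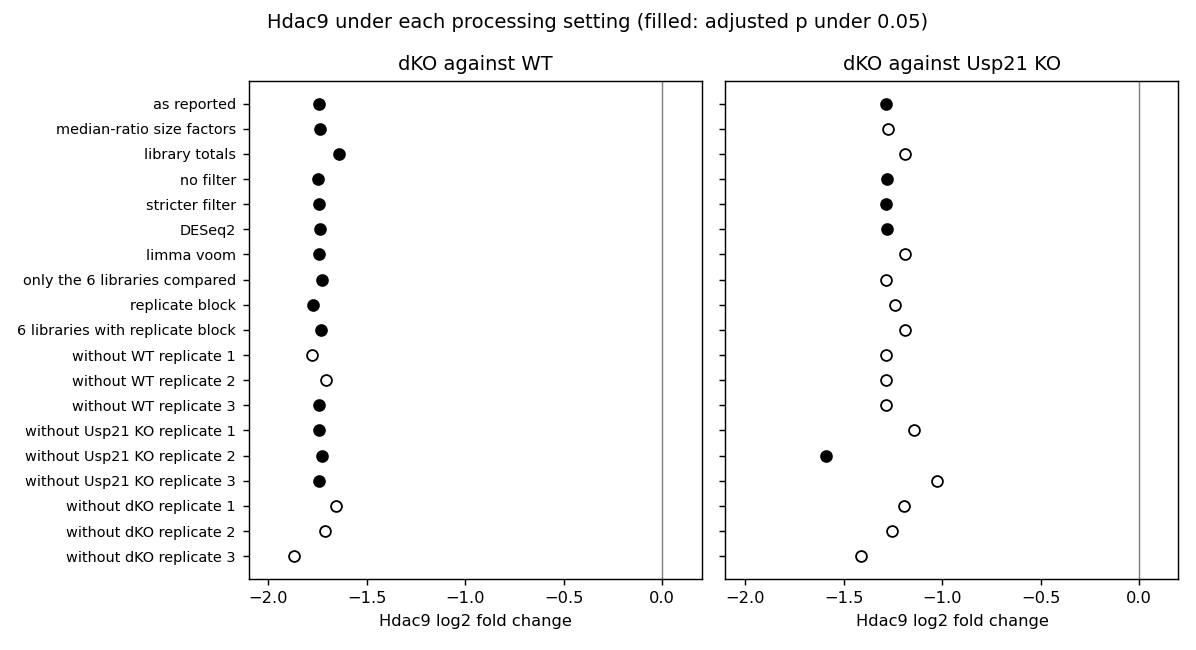
Log2 fold change of Hdac9 in dKO against WT (left) and against Usp21 KO (right) under each processing setting, with filled points where the adjusted p is under 0.05. All points lie below 0; on the left they run from -1.87 to -1.64, and several are open where a library was left out.

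The Usp21 KO library with low Hdac9, replicate 2, also differed from the rest in genes of T cell state. A list of genes of resting T cells had a mean log2 level of -0.72 in it relative to the mean of 9 libraries, against -0.08 to 0.21 in the other 8. A list of effector genes stood at 0.66, against -0.25 to 0.14 in the others. Both lists were chosen after the data were seen and are given as a description. The resting score was 0.16 to 0.21 in WT, 0.0722 and 0.135 in Usp21 KO replicates 1 and 3, and -0.08 to 0.04 in dKO. Hdac9 was low in dKO too, and a link between this score and Hdac9 was not tested. The effector score was -0.25 to 0.08 in WT and -0.07 to 0.14 in dKO, and these ranges overlap. In dKO against WT with TMM scaling, 8 of 10 resting genes had a log2 fold change below 0 (median -0.23), beside 7741 of 14994 genes. With edgeR 0 of the 10 resting genes passed over the 9 libraries and 0 had an unadjusted p under 0.05, and 0 passed with DESeq2 or limma voom. In the 6 libraries with the replicate block 5 fell, when 1330 of 14994 genes fell, and 4 fell without Usp21 KO replicate 2, when 1115 did.

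The other class IIa gene among the 9, Hdac7, had the highest level per exon length, 66.9 CPM per kb in WT. It lies on chromosome 15, from 97792664 to 97844502, and encodes a deacetylase that is expressed in T cells and can join Foxp3 in a complex. It was at 434, 485 and 438 CPM in WT, at 509, 512 and 483 in Usp21 KO, and at 435, 504 and 390.4 in dKO, and these groups overlap. The log2 fold change was -0.03 in dKO against WT (adjusted p = 0.887) and -0.18 against Usp21 KO (adjusted p = 0.278). With library totals in place of TMM scaling the first turned to 0.07 (adjusted p = 0.675). Among the 4 class IIa genes, Hdac7 took 80.5% to 85.1% of the summed level per kb in the 9 libraries. Hdac9 took 0.859% to 0.901% in WT, 0.279% to 0.81% in Usp21 KO and 0.229% to 0.343% in dKO.

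Levels per kb of exon in WT placed Ep300 (24.0) and Hdac3 (22.04) after Hdac7, then Hdac1 (18.8), Crebbp (18.6), Kat5 (12.0), Sirt1 (8.69), Hdac6 (6.97) and Hdac9 (0.711). Ep300 and Hdac3 differed by less than the SD of Ep300, 2.39, and the libraries of Hdac1 and Crebbp overlapped. Hdac9 was thus the gene with the lowest level per kb of exon among the 9.

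Class I deacetylases act in the nucleus, within corepressor complexes. Hdac1 lies on chromosome 4, from 129516104 to 129542713, and Hdac3 on chromosome 18, from 37935844 to 37955016. Hdac1 was at 62.8, 66.4 and 65.2 CPM in WT, 71.5, 58.8 and 63.5 in Usp21 KO, and 61.1, 61.2 and 62.9 in dKO. These groups overlap, with a log2 fold change of -0.07 in dKO against WT (adjusted p = 0.628), which turned to 0.03 with library totals. Hdac3, the catalytic subunit of the NCoR and SMRT complexes, was at 90.8, 88.3 and 89.0 CPM in WT, 94.8, 95.1 and 88.3 in Usp21 KO, and 94.9, 97.1 and 91.8 in dKO. Its dKO libraries lay above all WT libraries, by 0.08 on the log2 scale (adjusted p = 0.437).

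Hdac6 encodes a cytoplasmic deacetylase of class IIb, known for tubulin, and Sirt1 an NAD-dependent deacetylase. Hdac6 lies on chromosome X, from 7930120 to 7947889, and Sirt1 on chromosome 10, from 63319005 to 63381704. Hdac6 was at 43.2, 41.6 and 36.9 CPM in WT, 47.1, 34.9 and 38.7 in Usp21 KO, and 36.4, 38.3 and 33.7 in dKO, with overlapping groups and a log2 fold change of -0.17 in dKO against WT (adjusted p = 0.424). Sirt1 was at 42.9, 51.9 and 44.2 CPM in WT, 56.8, 50.9 and 46.1 in Usp21 KO, and 44.4, 51.7 and 56.4 in dKO. It also overlapped between groups, with a log2 fold change of 0.13 in dKO against WT (adjusted p = 0.522).

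Ep300 and Crebbp encode the paired coactivators p300 and CBP, which acetylate histones and many transcription factors. Ep300 lies on chromosome 15, from 81585351 to 81652077, and Crebbp on chromosome 16, from 4081328 to 4213997. Ep300 was at 327, 382 and 319.9 CPM in WT, 364, 329.6 and 366 in Usp21 KO, and 307, 291 and 303 in dKO. The dKO libraries lay below every WT and Usp21 KO library, at 87.4% of WT, with a log2 fold change of -0.19 (SE 0.08) that did not pass (adjusted p = 0.190). Crebbp was at 241, 278 and 238 CPM in WT, 264, 190.1 and 253 in Usp21 KO, and 211, 215 and 206 in dKO. The dKO libraries were below all WT libraries, at 83.4% of WT, with a log2 fold change of -0.26 (SE 0.11, adjusted p = 0.210). The low Usp21 KO library was again replicate 2.

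The call for Crebbp turned on which libraries entered the fit. In dKO against WT it passed in the 6 libraries of the comparison alone (-0.25, adjusted p = 0.0296), in those 6 with the replicate block (-0.25, adjusted p = 0.0149), and without Usp21 KO replicate 2 (-0.25, adjusted p = 0.0240). In dKO against Usp21 KO, leaving out Usp21 KO replicate 2 brought both Crebbp (-0.27, adjusted p = 0.0275) and Ep300 (-0.26, adjusted p = 0.0418) past the threshold. With library totals the dKO against WT changes were -0.09 for Ep300 and -0.16 for Crebbp.

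Kat5, on chromosome 19 from 5603014 to 5610237, encodes TIP60, the catalytic subunit of the NuA4 complex. It was at 42.3, 43.3 and 41.0 CPM in WT, 45.9, 49.2 and 43.2 in Usp21 KO, and 43.5, 50.2 and 39.8 in dKO, with overlapping WT and dKO groups and a log2 fold change of 0.07 (adjusted p = 0.677). Of its exon bases 426 (12.14%) lie on those of Rnaseh2c on the opposite strand, and the sources used here do not say whether counting used strand.

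Across the 9 genes, the libraries did not overlap for 0 in Usp21 KO against WT, for 4 in dKO against WT (Hdac3, Hdac9, Ep300 and Crebbp) and for 2 in dKO against Usp21 KO (Hdac9 and Ep300). The same held for 16.1%, 35.9% and 27.4% of all genes. The median log2 fold change of the 9 in dKO against WT was -0.07, against -0.0095 over all genes, and it was 0.03 with library totals, when that of all genes was 0.09. For 8 of the 9, all but Hdac9, the 95% interval lay within a 1.5-fold change either way in every comparison.

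**Figure D3:**
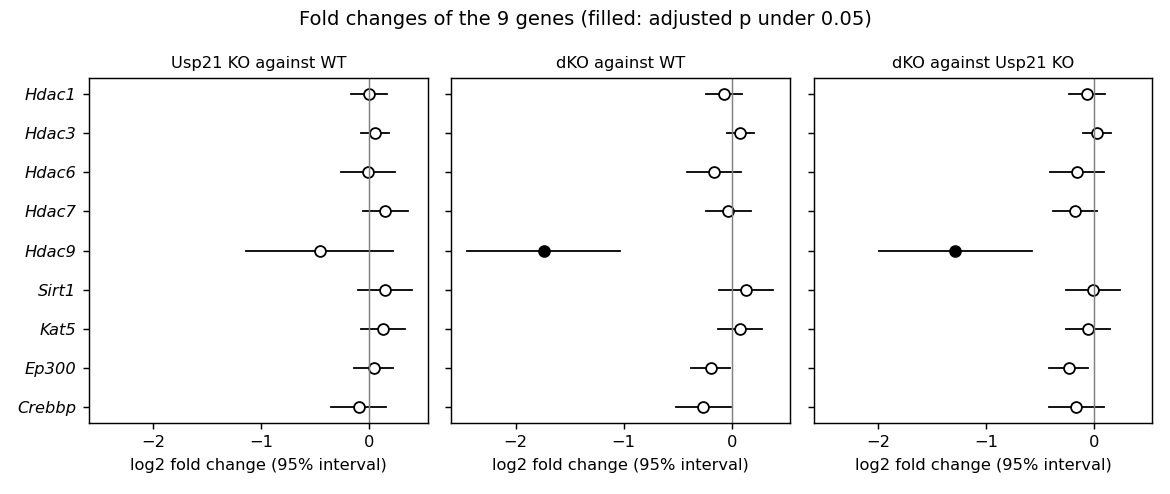
Log2 fold changes of the 9 genes with 95% intervals in the 3 comparisons, filled where the adjusted p is under 0.05. Hdac9 alone is filled, at -1.74 in dKO against WT and -1.28 in dKO against Usp21 KO, and the intervals of the other 8 stay within a 1.5-fold change.

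The 6 lists of related genes were chosen with earlier results of these data known, so their shares are a description. In these lists, pooled after their values were seen, 8 of 105 genes fell (7.62%) and 1 rose (0.952%) in dKO against WT. Of all genes, 2.77% fell and 3.01% rose. Against Usp21 KO 10 fell (9.52%) and 3 rose (2.86%), beside 3.2% and 1.7% of all genes. With library totals, 1 corepressor gene and 1 partner of p300 and CBP fell against WT, and 1 acetyltransferase gene and 1 such partner rose. The other counts were 0, and 236 of 14994 genes fell and 807 rose. In the 6 libraries with the replicate block, 0 fell in every list against Usp21 KO and 1 partner of p300 and CBP rose. Over all 14994 genes 4 fell and 4 rose there. Among 12 other deacetylase genes, 0 passed in any comparison with edgeR over the 9 libraries, Sirt7, a nuclear sirtuin, coming nearest in dKO against WT (-0.31, adjusted p = 0.0567). In that comparison 1 of the 12 had an unadjusted p under 0.05, and 1 passed with DESeq2 and 0 with limma voom. With edgeR, 2 fell in the 6 libraries with the replicate block and 1 without Usp21 KO replicate 2, when 1330 and 1115 of 14994 genes fell. Sirt7 passed there in 6 of 18 settings. Among 12 other acetyltransferase genes, Kat8, the catalytic subunit of the MSL and NSL complexes, fell in dKO against WT (-0.32, adjusted p = 0.0471), and Hat1, which acetylates newly made histone H4, rose against Usp21 KO (0.33, adjusted p = 0.0497). With library totals Kat8 did not pass and Hat1 passed in dKO against WT too. Kat8 passed against WT in 6 of 18 settings. Hat1 passed against Usp21 KO in 7 of 18, and not in the 6 libraries with the replicate block. Of 16 other TIP60 complex subunits, only Yeats4, a reader of acetylated histones, passed, higher in dKO against Usp21 KO (0.29, adjusted p = 0.0459); in dKO against WT 0 of 16 passed with edgeR over the 9 libraries, DESeq2 or limma voom, and 5 had an unadjusted p under 0.05. In that comparison 2 subunits fell in the 6 libraries with the replicate block, and 1 without Usp21 KO replicate 2. Against Usp21 KO, Yeats4 passed in 7 of 18 settings, and not in the 6 libraries with the replicate block.

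Of 27 corepressor genes of the HDAC complexes, 2 fell (7.41%) and 0 rose in dKO against WT, beside 2.77% and 3.01% of all genes. Mbd2, which binds methylated DNA, fell by 0.44 on the log2 scale against WT (adjusted p = 0.0176), and Gps2, a subunit of the NCoR complex, fell by 0.38 (adjusted p = 0.0238). Of 20 tested class IIa partners, 3 fell (15%) and 0 rose: the kinase genes Prkd2 (-0.35, adjusted p = 0.0349) and Mark2 (-0.29, adjusted p = 0.0379), and Mef2d (-0.37, adjusted p = 0.0417). PRKD2 and MARK2 are of kinase families that phosphorylate class IIa deacetylases, and MEF2D is a transcription factor that they bind. The log2 fold changes of the 20 partners in dKO against WT ran from -0.76 to 1.95, and neither end passed. In dKO against Usp21 KO the counts were again 2 and 3, but 0 and 0 in the 6 libraries with the replicate block. With library totals in place of TMM scaling, 1 corepressor gene and 0 class IIa partners fell against WT, and 1 of each fell against Usp21 KO. Without Usp21 KO replicate 2, 5 corepressor genes fell and 2 rose in dKO against WT, when 1115 and 1189 of 14994 genes did. The 6 libraries with the replicate block gave the same 5 and 2, when 1330 and 1632 of 14994 genes fell and rose. Of the class IIa partners, 3 fell and 1 rose in those 6 libraries.

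Of 18 partners of p300 and CBP, 2 fell (11.1%) and 1 rose (5.56%) in dKO against WT, beside 2.77% and 3.01% of all genes. This list was chosen with earlier results of these data known, so its shares are a description. Stat5b, which carries the signal of IL-2, fell by 0.45 (adjusted p = 0.00267), and the CREB coactivator gene Crtc3 fell by 0.35 (adjusted p = 0.0158). Epas1, which encodes HIF-2α, was at 11.5, 10.9 and 10.1 CPM in WT and at 58.5, 59.0 and 48.0 in dKO, and rose by 2.35 on the log2 scale (SE 0.16, adjusted p = 0.000113). Against Usp21 KO, 5 fell (27.8%) and 1 rose (5.56%), beside 3.2% and 1.7% of all genes. The additional 3 were Crtc2 (-0.42, adjusted p = 0.0296) and, named after their values were seen, Rela (-0.36, adjusted p = 0.0112) and Stat5a (-0.27, adjusted p = 0.0381). With library totals 1 of the 18 fell against WT and 3 against Usp21 KO, with 1 rising in each. Without Usp21 KO replicate 2 the count falling against WT was 7, when 1115 of 14994 genes fell. In the 6 libraries with the replicate block it was 6 against WT, when 1330 of 14994 genes fell, and 0 against Usp21 KO, with 1 rising in each.

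The median log2 fold change in dKO against WT was -0.0044 for the other deacetylases, -0.10 for the other acetyltransferases, -0.04 for the TIP60 subunits, -0.06 for the corepressors, -0.04 for the class IIa partners and -0.12 for the partners of p300 and CBP, beside -0.0095 over all genes. In Usp21 KO against WT 0 genes of these 6 lists passed with edgeR, DESeq2 or limma voom, and 9 of 105 had an unadjusted p under 0.05.

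**Figure D4:**
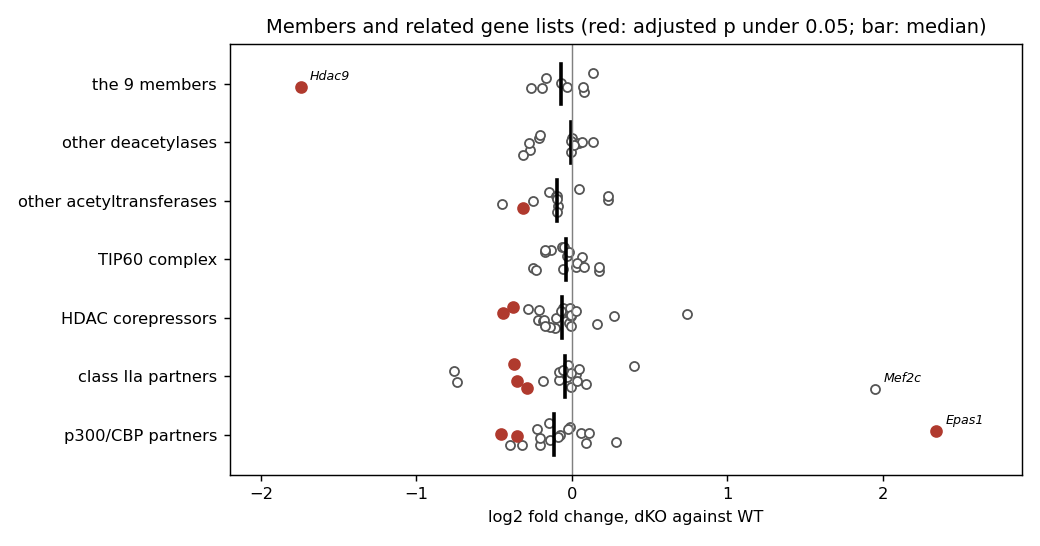
Log2 fold changes in dKO against WT for the 9 genes and 6 related lists, 1 point per tested gene, red where the adjusted p is under 0.05, with a bar at the median of each list. Hdac9 is at -1.74 and Epas1 at 2.35, and most other points lie near 0.

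Markers of other cells moved with dKO. The summed level of 16 myeloid markers was 94.8 to 317 CPM in WT, 97.3 to 277 in Usp21 KO and 409 to 1016 in dKO. In dKO against WT 2 of the 16 rose, beside 3.01% of all genes. The summed level of 10 CD8 T and NK cell markers was 54.4 to 66.5, 44.4 to 57.1 and 84.0 to 92.7 CPM, and 3 of the 10 rose. Markers of B cells (40.9 to 75.1, 43.1 to 62.0 and 71.9 to 79.8 CPM) and of plasma cells (156 to 198, 162 to 298 and 248 to 289 CPM) had 0 of 10 and 0 of 6 passing with edgeR, 1 and 3 with an unadjusted p under 0.05, 1 and 0 with DESeq2, and 1 and 0 with limma voom. Erythroid and platelet markers (18.3 to 25.9, 24.3 to 64.7 and 38.5 to 78.9 CPM) had 2 of 7 rising. Every marker found in the table had counts in at least 1 library, Ppbp having the fewest, at most 5. The 7 Treg markers summed to 2897 to 3239 CPM in WT, 3013 to 3282 in Usp21 KO and 2145 to 2450 in dKO. Of these 7, 4 fell, beside 2.77% of all genes, or 1 with library totals, when 236 of 14994 genes fell. The 6 general T cell markers summed to 4837 to 5129 CPM in WT, 4503 to 4820 in Usp21 KO and 4092 to 4294 in dKO. With TMM scaling all 6 had a log2 fold change below 0 in dKO against WT, and 3 fell, or 1 with library totals. In the 6 libraries with the replicate block, 10 of 16 myeloid, 7 of 10 CD8 T and NK cell, 2 of 6 plasma cell and 1 of 10 B cell markers rose. Without Usp21 KO replicate 2 the counts were 4, 6, 0 and 1. Over all 14994 genes, 1632 rose with that block and 1189 without Usp21 KO replicate 2. These counts are for dKO against WT. In dKO against Usp21 KO, 1 myeloid, 3 CD8 T and NK cell, 1 B cell, 0 plasma cell and 0 erythroid and platelet markers rose. The share of all genes was 1.7%. With the replicate block in 6 libraries, 0 rose in each of these lists against Usp21 KO, when 4 of 14994 genes did. In bulk libraries fewer cells of a type and less RNA per cell cannot be told apart, and the part of other cells in the Hdac9 result was not tested.

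Other genes of the Foxp3 stability list were examined beside Foxp3. Of 7 tested, 4 fell in dKO against WT, beside 2.77% of all genes, and 2 of the 4, Usp21 and Usp22, are the deleted genes. The others were Foxp3 and Rnf31, which encodes a ubiquitin ligase of the LUBAC complex (-0.36, adjusted p = 0.0308). Rnf31 did not pass with library totals.

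Genes whose profile was most like that of Hdac9 were sought among 10592 genes by the root-mean-square difference of log2 CPM, centred on the mean of 9 libraries. The nearest were Pam (0.194), Fggy (0.213), Chil5 (0.275), Ksr2 (0.289) and Rftn2 (0.299). Pam, which encodes a peptide-amidating enzyme, was lower in Usp21 KO replicate 2 (-0.82) as Hdac9 was (-0.73). The likeness is a description, over libraries that share their group.

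**Figure D5:**
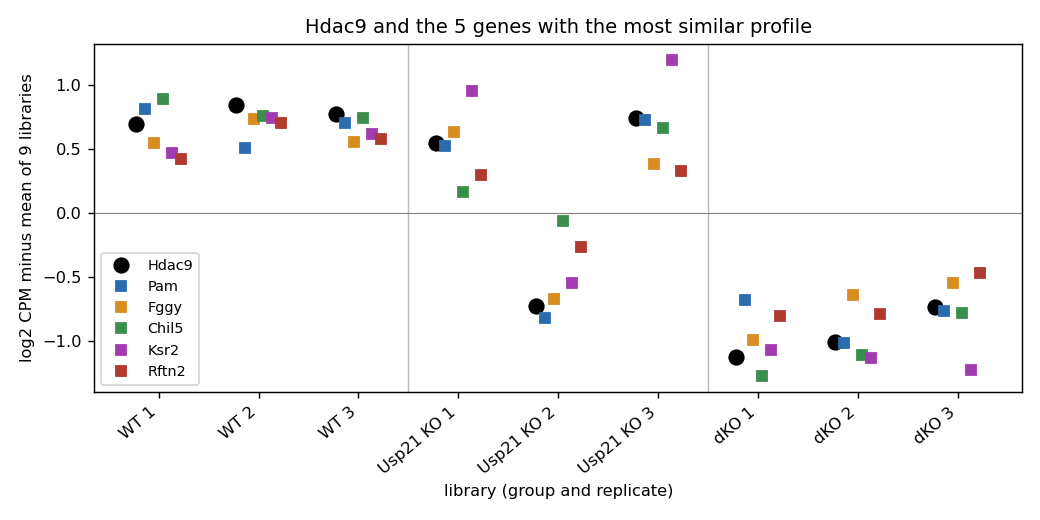
Log2 CPM minus the mean of 9 libraries for Hdac9 (black) and the 5 genes with the most similar profile, in each library. All 6 genes are above 0 in WT and below 0 in dKO and in Usp21 KO replicate 2, where Hdac9 is at -0.73.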

How the data were processed

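Per the submitters' processing notes, the tools were cutadapt 1.13, STAR, DESeq2 1.14.1 and HTSeq 0.6.1p1, and the build mm10; the strand setting and annotation release are not given in the sources used here. The authors deposited raw read counts per gene, unnormalized, 1 column per library. No pair of libraries was a duplicate (lowest chi-square per gene 5.01 over 36 pairs). Counts were tested with edgeR 4.0.16 in R 4.3.3 (filterByExpr, TMM, robust quasi-likelihood fit over 9 libraries, group as sole term), with Benjamini-Hochberg adjustment. The biological coefficient of variation common to all genes was 0.174. CPM used TMM-scaled totals. The steps were tested on simulated data.

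The members and lists were chosen with earlier results of these data known. Named genes were the members, the targets, Foxp3 and, per list, up to 4 that passed (smallest p in dKO against WT), or 2 where none did; Kat14 was not matched. Deviations of same-numbered WT and dKO libraries correlated at r = 0.124, 0.259 and 0.118. Those of WT and Usp21 KO had r = -0.264, -0.268 and 0.161, and those of Usp21 KO and dKO -0.109, -0.136 and 0.0732. Libraries of unlike number were not compared, so these values cannot show whether the numbers mark pairs. The reported fit has no block. The replicate block is an alternative, printed beside some of the results where it changes the call. Alternatives were other scalings, filters, DESeq2 1.42.0, limma voom 3.58.1, subsets of libraries, the replicate block and leaving out each library. Positions and exon lengths are from GENCODE M21.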

Additional observations from a re-analysis of the deposited data

How the results depend on the processing

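Of 1728 named-gene values, 96 under 18 settings, 1486 kept the call or its absence, 217 lost the call, 25 gained it and none changed sign while called. No member passed in Usp21 KO against WT under any setting. All-gene calls there were 2, against 40 with no filter, 193 with DESeq2, 1 with the 6 libraries, 0 with those 6 and the replicate block, and 2 to 15 when 1 library was left out (15 without Usp21 KO replicate 2). In dKO against WT, 1 member passed, against 2 with the 6 libraries, 2 with those and the replicate block, and 0 to 2 with 1 library left out. All-gene calls were 866, against 1502 with DESeq2, 2314 with the 6 libraries, 2962 with those and the replicate block (added after seeing the data), 606 with the replicate block in 9 libraries, and 193 to 2304 with 1 library left out (2304 without Usp21 KO replicate 2). In dKO against Usp21 KO, 1 member passed, against 0 with median-ratio factors, 0 with library totals, 0 with limma voom, 0 with the 6 libraries, 0 with the replicate block, 0 with both, and 0 to 3 with 1 library left out (3 without Usp21 KO replicate 2). All-gene calls were 735, against 1598 with DESeq2, 176 with the 6 libraries, 461 with the replicate block, 8 with both, and 168 to 2199 with 1 library left out (2199 without Usp21 KO replicate 2). Library totals gave 807 higher and 236 lower in dKO against WT, in place of 451 and 415, and 654 and 281 against Usp21 KO, in place of 255 and 480. Hdac9 had 61 to 412 counts per library, with 3 libraries per group, and what limits its precision was not tested. The cause of the lost calls was not tested.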

Other observations

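Genes near Hdac9 were looked at after its change was seen. Of 10 tested genes within 1000 kb on chromosome 12 (mm10), 3 passed in dKO against WT, beside 5.78% of all genes. Snx13, which encodes a sorting nexin and starts at 35047186, fell from 63.7 ± 7.62 to 45.7 ± 4.03 CPM (SD, n = 3), a log2 fold change of -0.48 (edgeR, adjusted p = 0.0267). Prps1l1, a low-level gene, fell from 0.783 to 0.178 CPM (adjusted p = 0.0349), and Gm48236 rose from 1.27 to 3.28 CPM (adjusted p = 0.0240). Ahr (0.59, adjusted p = 0.256) and Atxn7l1 (-0.10, adjusted p = 0.390) did not pass.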
